A study of Arabidopsis thaliana with 8 samples.

Results

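The photoreceptor and circadian clock genes of Arabidopsis were examined as a set of 35 genes, taken by locus number from 7 role groups and looked up in the binding peaks of the transcription factors GNC and CGA1. The groups were 5 phytochromes, 4 cryptochromes and phototropins, 6 genes of the COP1, SPA and DET1 group, 8 morning MYB-like genes, 5 pseudo-response regulators, 3 genes of the evening complex and 4 genes of the GI and ZTL family. They were 35 of 27444 protein-coding genes on the nuclear chromosomes. The choice of genes used no peak, but it was made with earlier results of these data known. A gene counted as having a peak of a factor when both lists of that factor held a peak that overlapped its window by at least 1 bp. The window ran from 2 kb upstream of the gene start to 1 kb downstream of the gene end.

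Chromatin immunoprecipitation with sequencing (ChIP-seq) was performed with an anti-myc antibody on whole rosette leaves of Col-0 plants, 3 weeks old and grown in long days. The plants overexpressed either myc-tagged GNC or myc-tagged CGA1, so the peaks describe tagged proteins at raised levels, and plants without a tag were not analysed here. Each line had 2 IP and 2 INPUT samples, and the 4 peak lists, 1 for each IP sample, were used. The promoter that drives the transgenes is not given in the sources used here.

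GNC and CGA1 are paralogous GATA-type zinc finger factors, known for promoting chlorophyll synthesis and chloroplast development in green tissue. Phytochromes sense red and far-red light, cryptochromes and phototropins sense blue light, and COP1 with its SPA partners is a ubiquitin ligase that removes light-promoting transcription factors in darkness. The clock is a loop of repressors, in which morning MYB-like factors, then pseudo-response regulators, then the evening complex hold each other down over the day, and in which MYB-like factors bind a short promoter word called the evening element.

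The lists held 5744 and 5721 nuclear peaks of GNC and 2456 and 2399 of CGA1. Each peak carries a score, the MACS p-value of IP against INPUT as minus 10 times its log10, and the lowest score was 50. The median score was 65.3 and 65.6 in the GNC lists and 62.9 and 62.5 in the CGA1 lists. The lists of a line come from samples described as biological replicates. All 4734 regions found in both GNC lists had the same start and end in both, and so did 891 of 1918 in CGA1, while 545 of the GNC regions had the same score in both. Both lists of a factor were therefore counted as 1 sample. No spread between replicates was derived, and whether presence in both lists is an independent repeat cannot be told from the lists. The lists hold no read counts, so depth is unknown and a missing peak says only that none was listed.

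The peak regions that carry the findings are shown first. The peaks upstream of PHYB, PHOT1, RVE7 and RVE2 lay in no annotated protein-coding gene, while other kinds of gene were not checked. The peak with the highest score of the set in GNC list 1, at PRR3, is shown as a short site. Each is written 5′ to 3′ on the strand of its gene from the TAIR10.1 reference. Capitals mark GATA (TATC on the other strand), GATC, the evening element AAAATATCT (AGATATTTT on the other strand) and the G-box CACGTG. The evening element itself holds a TATC, so each one is also a GATA match.
PHYB, GNC, chr2:8138784-8138979, plus strand: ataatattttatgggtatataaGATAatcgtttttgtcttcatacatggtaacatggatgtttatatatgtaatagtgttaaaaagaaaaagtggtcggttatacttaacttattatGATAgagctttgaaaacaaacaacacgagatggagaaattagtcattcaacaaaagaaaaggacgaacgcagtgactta
PHOT1, GNC, chr3:16816153-16816360, plus strand: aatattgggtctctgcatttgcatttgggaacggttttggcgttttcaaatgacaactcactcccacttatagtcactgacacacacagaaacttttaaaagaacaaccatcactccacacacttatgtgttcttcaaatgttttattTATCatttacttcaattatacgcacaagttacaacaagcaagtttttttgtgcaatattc
RVE7, GNC, chr1:6308285-6308584, minus strand, 300 of the 402 bases of the peak, chosen to hold both evening elements: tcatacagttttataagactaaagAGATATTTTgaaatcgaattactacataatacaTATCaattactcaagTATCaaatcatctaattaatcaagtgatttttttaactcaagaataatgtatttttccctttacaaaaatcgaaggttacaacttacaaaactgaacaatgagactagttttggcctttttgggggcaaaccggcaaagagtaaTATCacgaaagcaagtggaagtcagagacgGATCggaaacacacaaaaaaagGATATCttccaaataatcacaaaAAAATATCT
PRR3, GNC, chr5:24200542-24200571, minus strand, 30 bases about an AGATAG site: gctgcttctattcTATCttgttcatggagg
RVE2, CGA1, chr5:14753125-14753369, minus strand: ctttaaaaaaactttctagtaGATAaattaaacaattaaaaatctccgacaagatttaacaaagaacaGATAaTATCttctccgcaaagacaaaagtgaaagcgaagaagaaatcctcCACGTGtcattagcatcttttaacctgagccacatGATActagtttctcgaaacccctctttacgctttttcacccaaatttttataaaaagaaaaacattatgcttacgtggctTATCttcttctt

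GNC peaks were found in both lists at 10 of the 35 genes, namely PHYB, PHYD, PHOT1, COP1, DET1, CCA1, RVE7, PRR3, ELF3 and FKF1. This was 28.6% (95% Wilson interval 16.3 to 45.1, counting error only), against 22.9% of all protein-coding genes. CGA1 peaks were found in both lists at 4 genes, SPA1, LHY, RVE2 and FKF1. This was 11.4% (4.54 to 26.0), against 9.94% of all protein-coding genes. FKF1 was the only gene with peaks of both factors in both lists, 2.86% of the set, against 2.57% of all protein-coding genes. No peak in any of the 4 lists was found at 20 of the 35 genes, 57.1%, against 59.3% of all protein-coding genes. The interval of each share of a single factor holds the share of all genes.

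The genes of the set are long. Their windows had a median of 6.62 kb, against 5.08 kb for all protein-coding genes, and 25 of the 35 were in the top quartile of window length. In that quartile, GNC peaks were found at 7 of the 25, or 28.0%, against 30.0% of all genes in it. CGA1 peaks were found at 2 of the 25, or 8.0%, against 13.1%. When the shares of all genes were weighted to the window lengths of the set, they came to 28.1% for GNC and 12.2% for CGA1, close to the 28.6% and 11.4% of the set. In density, GNC had 5.35 peaks per 100 kb of the windows of the set (3.49 to 7.84, exact Poisson interval over both lists), against 5.82 over the windows of all protein-coding genes. CGA1 had 1.85 (0.846 to 3.51), against 2.49. Both intervals hold the value of all genes, and since they count each region in both lists they are too narrow.

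**Figure D1:**
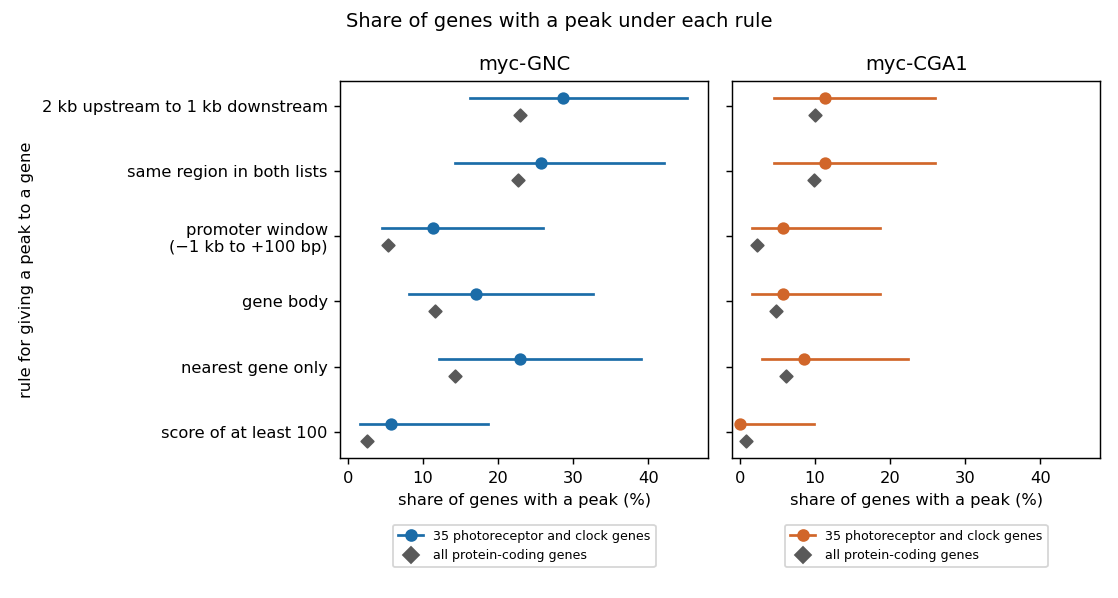
Share of genes with a peak (x axis, percent) under 6 rules for giving a peak to a gene (y axis), for myc-GNC on the left and myc-CGA1 on the right. Circles are the 35 photoreceptor and clock genes with 95% Wilson intervals and diamonds are all protein-coding genes, and under the main rule the values are 28.6% and 22.9% for GNC and 11.4% and 9.94% for CGA1.

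Narrower rules changed the counts. With the promoter window of the study, from 1 kb upstream to 100 bp downstream of the gene start and by peak centre, GNC peaks were found at PHYB, PHYD, PHOT1 and RVE7. These 4 genes were 11.4% of the set (4.54 to 26.0), against 5.35% of all protein-coding genes. CGA1 peaks were found in this window at SPA1 and RVE2, or 5.71% (1.58 to 18.6), against 2.25%. The promoter window has the same length at every gene, and both intervals hold the share of all genes. Over the gene body alone, GNC peaks were found at 6 genes, 17.1% (8.1 to 32.7), against 11.6% of all protein-coding genes. CGA1 peaks were found there at 2, 5.71% (1.58 to 18.6), against 4.85%. When each peak was given only to its nearest gene, GNC kept 8 genes, 22.9% (12.1 to 39.0), against 14.2% of all protein-coding genes, and lost PHYB and PHYD. CGA1 kept 3, 8.57% (2.96 to 22.4), against 6.13%, and lost FKF1. The intervals of these 2 rules hold the share of all genes, which was not weighted to length here. The median gene length was 3.62 kb in the set, against 2.08 kb over all protein-coding genes. From 1 kb upstream to the gene end, GNC peaks were found at the same count of 10 genes, 28.6% (16.3 to 45.1), against 15.7% of all protein-coding genes, and this interval lies above the share of all genes. Weighted to the lengths of these shorter windows in the set, the share of all genes was 21.1%, inside the interval. CGA1 peaks were found at 3 genes, 8.57% (2.96 to 22.4), against 6.7% of all protein-coding genes and 8.95% when weighted.

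Among the regions found in both lists, the places within the genes were mixed. There were 10 GNC regions at 9 genes, of which 5 were centred upstream of the gene start, 1 in a 5′ UTR, 3 in coding exons and 1 in a 3′ UTR. Of the 4 CGA1 regions, 2 were centred upstream, 1 in a 3′ UTR and 1 downstream. Of the 7 regions found in 1 list only, 4 were centred in introns. Counted over both lists, 38.5% of the 26 pairs of a GNC peak and a gene of the set were centred within 1 kb upstream, against 18.9% of the 17188 pairs over all protein-coding genes. No GNC peak of the set was centred downstream of its gene, against 21.2% over all genes. These 26 pairs come from 16 regions and are not independent. Of the 14 regions found in both lists, 12 lay in the window of at least 1 other protein-coding gene as well, and at 4 of them that other gene was nearer. The shares over all peaks are not given for these counts or for the introns, so no trait of the set is read from them.

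**Figure D2:**
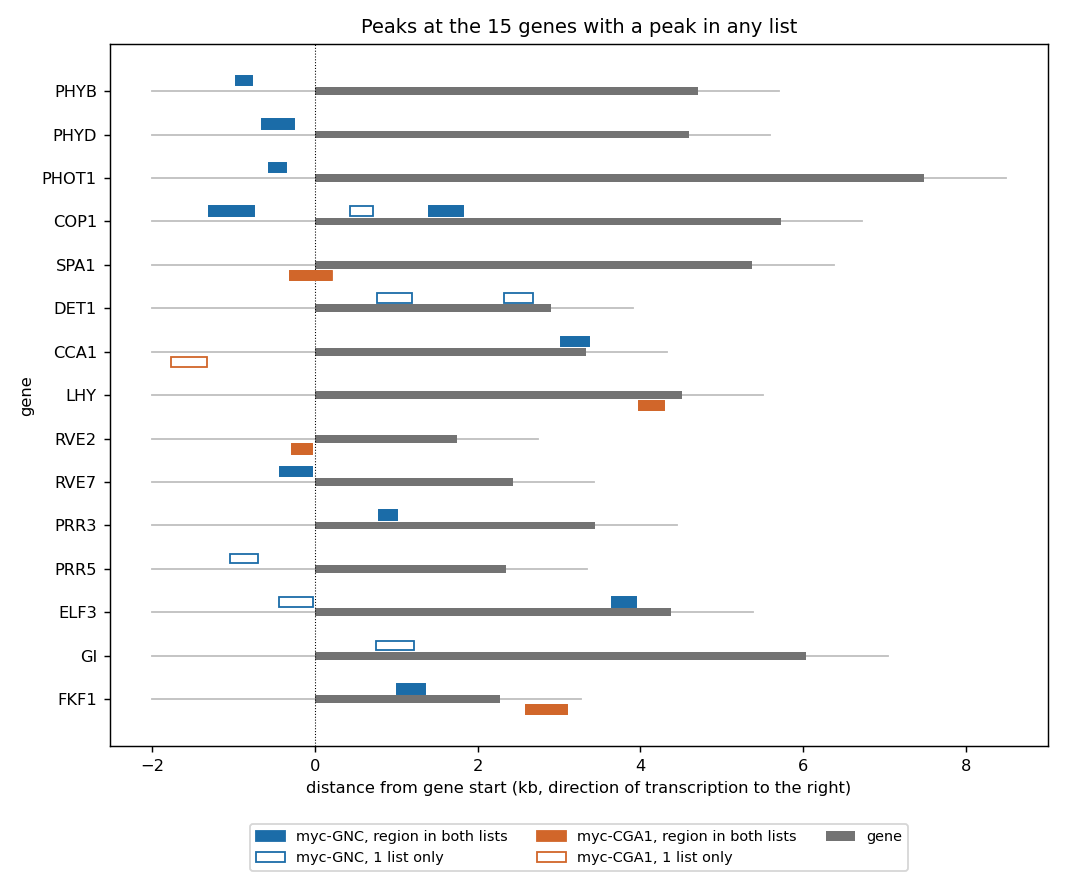
Peaks at the 15 genes with a peak in any list, by distance from the gene start in kb (x axis), with 1 row for each gene. Grey bars are genes and thin lines the window, blue boxes above the line are myc-GNC peaks and orange boxes below it myc-CGA1 peaks, filled where the region was in both lists, and the 2 open boxes at DET1 lie apart.

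Of the phytochromes, PHYB and PHYD had GNC peaks and PHYA, PHYC (AT5G35840) and PHYE had no peak in any list. PHYB (AT2G18790), the main red-light receptor of light-grown plants, had its GNC peak at chr2:8138784-8138979 with scores of 124.16 and 137.64, above 96.3% and 97.7% of the peaks of their lists. The centre lay 875 bp upstream of the gene start, in no annotated protein-coding gene, and was nearer to the neighbouring AT2G18780. PHYD (AT4G16250), a close relative of PHYB, had its GNC peak at chr4:9200093-9200493 with scores of 55.23 and 53.24, above only 21.0% and 14.4% of their lists. Its centre was 453 bp upstream of the start of PHYD, but inside a coding exon of AT4G16260. PHYE (AT4G18130), another light-stable phytochrome, was the gene farthest from any GNC peak, at 38519 bp, and also had its nearest CGA1 peak 40724 bp away. PHYA (AT1G09570), the far-red receptor, had the nearest CGA1 peak 3631 bp upstream, outside the window.

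Of the cryptochromes and phototropins, only PHOT1 had a peak in both lists of a factor. PHOT1 (AT3G45780), the phototropin that directs growth toward light, had a GNC peak at chr3:16816153-16816360 with scores of 60.16 and 93.38, above 37.2% and 85.4% of the peaks of their lists. The region had the same edges in both lists, while the score was much higher in list 2. Its centre lay 465 bp upstream of the gene start, and it was in the window of no other protein-coding gene. CRY1 (AT4G08920) and CRY2 (AT1G04400), the cryptochromes, and PHOT2 (AT5G58140), the phototropin of chloroplast avoidance movement, had no peak in their windows. The nearest GNC peak to PHOT2 lay 1738 bp downstream of the gene and that to CRY2 lay 2376 bp upstream.

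In the COP1, SPA and DET1 group, COP1 and DET1 had GNC peaks and SPA1 had a CGA1 peak, while SPA2 (AT4G11110), SPA3 (AT3G15354) and SPA4 (AT1G53090) had none. COP1 (AT2G32950), the ubiquitin ligase, had 2 GNC regions found in both lists. The first, at chr2:13976582-13977129, scored 66.24 and 59.75 and was centred 1026 bp upstream of COP1, in a coding exon of its neighbour AGO6. The second, at chr2:13979284-13979694, scored 81.14 and 73.26 and was centred in a coding exon of COP1. A further GNC peak in intron 1 of COP1 scored 52.07 and was in list 2 only. DET1 (AT4G10180), a repressor of light responses that works with a DDB1 complex, had a different peak in each GNC list. List 1 had chr4:6348738-6349093 with a score of 50.61 and list 2 had chr4:6347178-6347601 with a score of 58.06, both in introns. When the same region was required in both lists, DET1 was lost and GNC peaks were found at 9 of the 35 genes, 25.7%, against 22.7% of all protein-coding genes. The CGA1 count stayed at 4, against 9.87%. SPA1 (AT2G46340), a partner of COP1, had its CGA1 peak across the gene start at chr2:19027322-19027836, with scores of 57.39 and 56.45, above 32.0% and 29.8% of their lists.

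Of the 8 morning MYB-like genes, none had peaks of both factors in both lists, which 2.57% of all protein-coding genes had. CCA1 and RVE7 had GNC peaks in both lists and LHY and RVE2 had CGA1 peaks in both, while RVE1 (AT5G17300), RVE4 (AT5G02840), RVE8 (AT3G09600) and AT5G52660, listed as a gene of the RVE family, had none. CCA1 (AT2G46830) and LHY (AT1G01060) are paired repressors at the core of the clock. CCA1 had its GNC peak at chr2:19248618-19248964, with scores of 53.95 and 53.74, above 16.1% and 16.0% of their lists, at the 3′ end of the gene. LHY had its CGA1 peak at chr1:33583-33888, with scores of 70.14 and 64.81, also in the 3′ UTR. CCA1 had a CGA1 peak in list 1 only, with a score of 80.75, centred 1547 bp upstream in a coding exon of the neighbour PSI-P.

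RVE7 (AT1G18330) and RVE2 (AT5G37260) are single-MYB relatives of CCA1 that are themselves under clock control. Their peaks lay next to the gene start, 32 bp from RVE7 and 37 bp from RVE2 at the near edge. RVE7 had its GNC peak at chr1:6308275-6308676, with a score of 70.29 in both lists, above 59.1% and 59.4% of them. RVE2 had its CGA1 peak at chr5:14753125-14753369, with scores of 79.99 and 81.20, above 79.0% and 80.3% of the peaks of their lists. Neither gene had a peak of the other factor in its window, since the nearest CGA1 peak to RVE7 lay 23045 bp away and the nearest GNC peak to RVE2 lay 10955 bp away. The study lists primers at RVE7 for checking its ChIP-seq data by quantitative PCR. It describes the genes checked in this way as found in both its GNC and its CGA1 data, and the measured values are not given here. The difference between the factors at these genes was not tested, since each factor has 1 line and both its lists were counted as 1 sample.

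Of the pseudo-response regulators, PRR3 had a GNC peak in both lists and PRR5 had 1 in list 2 only, while TOC1, PRR7 (AT5G02810) and PRR9 (AT2G46790) had none. PRR3 (AT5G60100), which in Arabidopsis stabilizes the TOC1 protein, had the highest score of the set in list 1. Its peak at chr5:24200410-24200629 scored 158.93 and 115.21, ranks 43 and 330 in their lists. The centre lay in the 5′ UTR, 896 bp downstream of the gene start, and the peak reached into the coding sequence. PRR5 (AT5G24470), a repressor of CCA1 and LHY, had a peak at chr5:8359251-8359591 with a score of 69.72 in GNC list 2, centred 875 bp upstream, and no peak there in list 1. TOC1 (AT5G61380), the evening repressor of the morning genes, had its nearest GNC peak 7057 bp away and its nearest CGA1 peak 7775 bp away.

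Of the evening complex, which represses PRR genes at night, only ELF3 (AT2G25930) had peaks. The GNC region in both lists was chr2:11062598-11062892, with scores of 71.62 and 73.99, in a coding exon 579 bp from the gene end. A GNC peak with a score of 53.98 lay 235 bp upstream of ELF3 in list 1 only, so its promoter had no region shared by both lists. ELF4 (AT2G40080) and LUX (AT3G46640), the other parts of the complex, had their nearest peaks of either factor over 8 kb away (8486 bp for CGA1 at LUX).

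In the GI and ZTL family, FKF1 had peaks of both factors, GI had a GNC peak in list 2 only, and ZTL and LKP2 (AT2G18915) had none. FKF1 (AT1G68050) is a blue-light-sensing F-box protein that acts with GI to remove repressors of flowering. Its GNC peak at chr1:25509642-25509990 scored 76.24 and 72.24 and lay in a coding exon. Its CGA1 peak at chr1:25511233-25511738 scored 92.51 and 89.40, above 89.2% and 86.8% of their lists, but lay 326 bp beyond the gene end, in an intron of the neighbour MAP70-1. The centres were 1669 bp apart and the peaks did not overlap. The GNC peak of GI (AT1G22770), at chr1:8062504-8062968, scored 52.47 and lay in intron 3. ZTL (AT5G57360), the F-box protein that sets clock period, had its nearest GNC peak 1062 bp downstream of the gene, just outside the window, against 326 bp for the farthest downstream peak inside it.

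**Figure D3:**
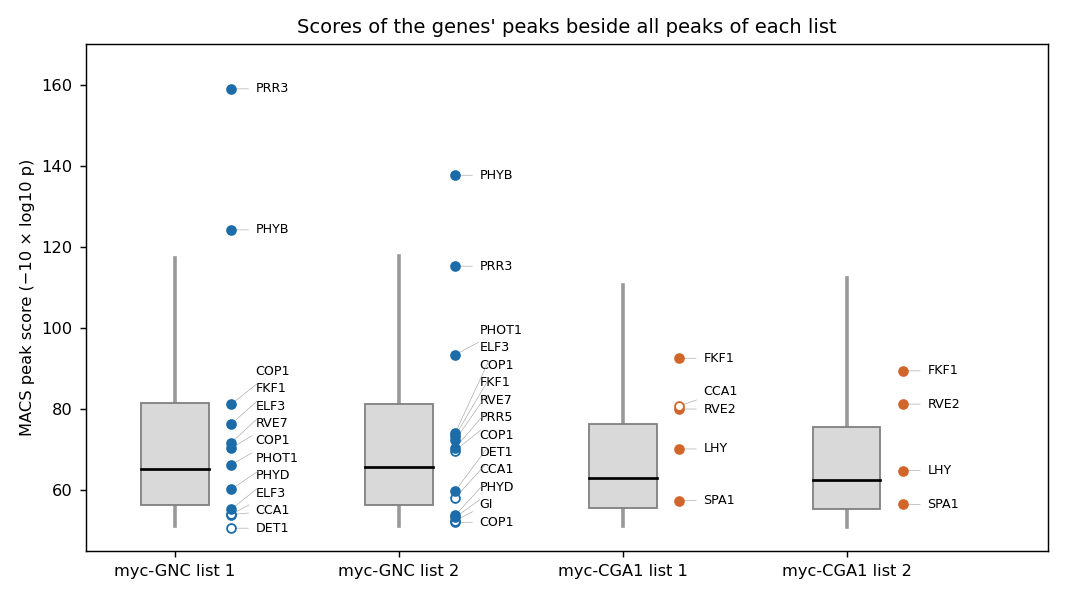
MACS score of each peak at the genes (y axis) in each of the 4 lists (x axis), as filled circles for regions in both lists and open circles for regions in that list only. Boxes span the quartiles of all peaks of the list with the median as a line, and grey bars the 5 to 95 percentile range, and PRR3 and PHYB stand above 100 in both GNC lists while no CGA1 peak of the set does.

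The median score over the peaks of the set was 68.3 and 70.0 in the GNC lists, against 65.3 and 65.6 for all peaks, a small difference. In the CGA1 lists it was 80.0 and 73.0, over 5 and 4 peaks, higher than the 62.9 and 62.5 of all peaks, with too few peaks for an order to be read. A score of at least 100 in both lists was found at PHYB and PRR3 for GNC, 5.71% of the set (1.58 to 18.6), against 2.61% of all protein-coding genes. For CGA1 it was found at 0 of 35 genes (upper limit of the Wilson interval 9.89%), against 0.762%.

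**Figure D4:**
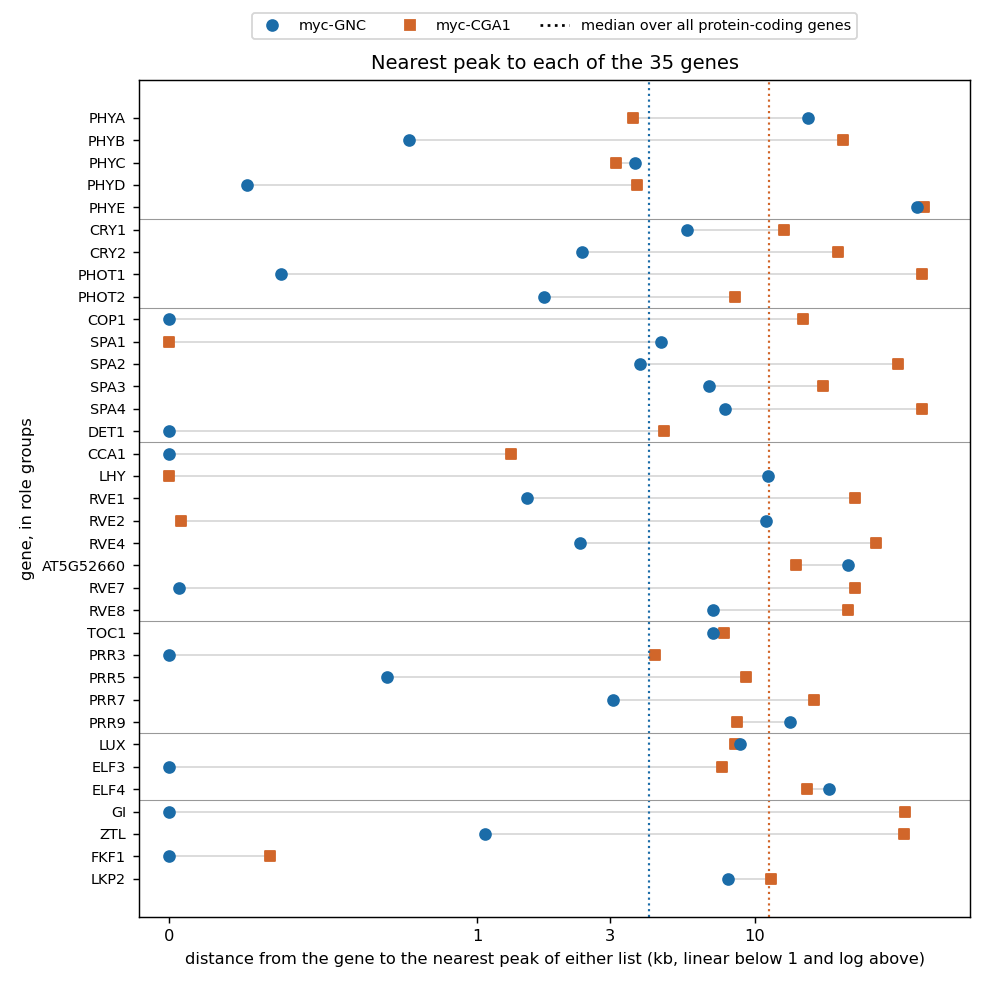
Distance from each of the 35 genes to the nearest peak of either list (x axis, kb, linear below 1 and logarithmic above), with circles for myc-GNC and squares for myc-CGA1, and genes in role groups separated by grey lines. Dotted lines are medians over all protein-coding genes, 4.16 kb for GNC and 11.3 kb for CGA1, and the set has members on both sides of each.

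The median distance from a gene of the set to the nearest peak was 3.08 kb for GNC and 12.8 kb for CGA1, against 4.16 and 11.3 kb over all protein-coding genes. The 23 genes with no GNC peak in their window had the nearest one 1.06 to 38.5 kb away, and the 30 with no CGA1 peak had it 3.15 to 40.7 kb away.

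Peaks were spread thinly over the role groups, and the counts are to be read against the 22.9% of all protein-coding genes for GNC and 9.94% for CGA1. Each of the 7 groups had at least 1 gene with a GNC peak in both lists. The share ran from 1 of 5 pseudo-response regulators, 20.0%, to 2 of 5 phytochromes, 40.0%. The 4 genes with CGA1 peaks in both lists fell in 3 groups, with 1 of 6 in the COP1, SPA and DET1 group, 2 of 8 morning MYB-like genes and 1 of 4 in the GI and ZTL family. With 3 to 8 genes in a group, 1 gene decides much of a share, and the groups were not ordered by it.

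The words that GATA factors and clock factors recognize were counted in the peaks. GATA was found on either strand in all 10 GNC regions and all 4 CGA1 regions of the set that were in both lists, with 26 and 19 sites. Over all peaks of the first lists, GATA was in 94.8% of GNC peaks and 95.5% of CGA1 peaks. In windows of 501 bp it was in 98.3% of GNC peaks and 98.5% of CGA1 peaks, against 97.8% of all such windows of the nuclear genome, so its presence does not mark these regions. GATC was in 5 of the 10 GNC regions and 2 of the 4 CGA1 regions, against 70.6% and 72.5% of all peaks. In windows of 501 bp, GATC was in 8 of 10 GNC regions and 3 of 4 CGA1 regions. The shares there were 80.0% of GNC peaks, 79.2% of CGA1 peaks and 79.3% of genome windows, so no lack of GATC is read from the peak intervals. Of the longer words, AGATAA was in 1 of the 10 GNC regions, AGATAG in 1, TGATAA in 3 and TGATAG in 2, against 32.0%, 17.4%, 33.4% and 17.5% of all GNC peaks of list 1. In windows of 501 bp the same words were in 2, 2, 4 and 2 of 10, against 39.5%, 21.9%, 40.1% and 22.2% of GNC peaks and 39.2%, 22.4%, 39.7% and 22.4% of genome windows. In the CGA1 regions, AGATAA was in 1 of 4, at RVE2, with 3 sites, and TGATAA was in 1 of 4, at LHY, against 34.7% and 34.6% of all CGA1 peaks of list 1.

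The evening element was found in 1 of the 10 GNC regions, that of RVE7, with 2 sites, and in 0 of the 4 CGA1 regions. In windows of 501 bp it was likewise in 1 of 10 GNC and 0 of 4 CGA1 regions, against 2.84% of all GNC peaks, 3.18% of all CGA1 peaks and 2.4% of genome windows. The RVE7 peak had 8 GATA sites in all, and its 2 evening elements start 317 and 50 bp upstream of the gene start. The peak upstream of PRR5, in GNC list 2 only, held 1 evening element. The RVE2 peak held 5 GATA sites and the only G-box of the set, a word in 6.75% of GNC peaks, 6.35% of CGA1 peaks and 5.36% of genome windows, all over 501 bp. It also held AAAAATCT, the word of the CCA1 binding site, as did the SPA1 peak, against 8.35% of CGA1 peaks and 8.38% of genome windows of 501 bp. The CGA1 peak upstream of CCA1, in list 1 only, held 1 AAAAATCT and had 0 GATA and 0 GATC sites. PHYB had 2 GATA sites, as AGATAA and TGATAG, PHOT1 had 1, as TGATAA, and the FKF1 peak of GNC had 1. GATACG, which holds a GATA, was in the CGA1 peak of FKF1, against 9.0% of CGA1 peaks and 8.41% of genome windows of 501 bp. GATTCG was in 2 of 10 GNC regions, also within 501 bp, against 16.1% of GNC peaks and 15.3% of genome windows of that length. A match here is a string of letters in the interval and not a measured binding site.

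Other genes of light signalling and the clock were looked up from a further list of 31. GNC peaks in both lists were found at 10 of them, 32.3%, against the 22.9% of all protein-coding genes, and CGA1 peaks at 3, 9.68%, against 9.94%. The GNC genes were HY5, FAR1, CIB1, NPH3, DDB1A, LNK3, TIC, PRMT5, CKB4 and CDF1. HY5, the bZIP factor that COP1 removes, had its peak at scores of 71.34 and 73.58, centred 1943 bp upstream inside the neighbour OCP3. CDF1, a target of FKF1 and GI, had scores of 57.62 and 75.29, centred 2059 bp upstream inside AT5G62440. FAR1, a factor of PHYA signalling, had a score of 103.05 in both lists, in a coding exon, and PRMT5, a protein methyltransferase needed for normal clock period, had 101.80 and 110.98, centred 402 bp upstream and in the 3′ UTR of AT4G31130. LNK3, a relative of the LNK clock coactivators, had 51.33 and 67.91, centred 52 bp upstream. DDB1A, a subunit of the ubiquitin ligases with which DET1 works, had 75.22 and 81.81 and CKB4, a regulatory subunit of casein kinase 2, had 83.90 and 87.80, both in coding exons. NPH3, the partner of PHOT1 in phototropism, had 62.87 and 70.29, centred 1781 bp upstream in a coding exon of AT5G64320. TIC, a regulator of clock amplitude, had 2 regions, with 60.29 and 55.08 upstream and 53.88 and 54.16 in a coding exon. LNK2 had a GNC peak in list 1 only.

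The CGA1 genes of this list were HYH, the HY5 homolog, RUP2, a repressor of UV-B signalling, and CIB1, a bHLH partner of CRY2. HYH had scores of 56.10 and 56.47 and RUP2 had 75.17 and 65.74. Both peaks were centred outside the window and reached it by an edge only. The centres lay 2153 and 2151 bp upstream of HYH and 1004 bp past the end of RUP2. They were nearer to AT3G17600 and AT5G23740. CIB1 was the only gene of the list with peaks of both factors in both lists, 3.23% of the 31, against 2.57% of all protein-coding genes. Its CGA1 peak scored 76.20 and 82.84 and was centred in a coding exon, 152 bp downstream of the gene start. That centre also lay in the 5′ UTR of AT4G34540, to which the nearest-gene rule gave the peak. The GNC peak of CIB1 scored 65.38 and 85.77 and lay downstream of CIB1, in an intron of AT4G34540. UVR8, JMJ30 and DDB1A had a CGA1 peak in list 1 only and RUP1 in list 2 only. In the promoter window, 2 of the 31 had GNC peaks, 6.45%, against the 5.35% of all protein-coding genes, and 0 had CGA1 peaks, against 2.25%. When each peak was given only to its nearest gene, 5 of the 31 had GNC peaks, 16.1%, against 14.2%. By that rule 0 had CGA1 peaks, against 6.13%.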

How the data were processed

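ChIP-seq peak lists of 4 IP samples were used, 2 of the myc-GNC line and 2 of the myc-CGA1 line. The authors trimmed reads, mapped them to TAIR10 with Bowtie2 (version 2.2.6 in the submitters' processing notes), removed reads with several matches and called peaks per replicate with MACS against INPUT. The deposited score is the authors' MACS value, and it was only used to describe and filter peaks. Counts of reads are not in the lists.

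Samples were grouped by title, although the CGA1 INPUT samples carry GNC file names in their descriptions. Genes were those of the TAIR10.1 annotation on the 5 nuclear chromosomes. Its chromosomes hold every peak end, and coordinates count from 1. The 1 chloroplast peak of each GNC list was left out. Of the 35 genes, all matched by locus and 34 carry their name in the annotation. Of 33 further genes, 2 whose locus does not carry the name were dropped. The rule for named genes was to name all 35, with scores in each list for every gene with a peak, and the further genes with a peak in both lists. The members and lists were chosen with earlier results of these data known.

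Overlaps, shares, Wilson and Poisson intervals and motif counts were computed in Python 3.11.15 with numpy 2.4.6, pandas 2.3.3 and scipy 1.17.1, and the overlap and motif steps were tested on simulated data. No test was run, since the lists hold no read counts and each factor has 1 line, with both its lists counted as 1 sample. Peak places come from all transcripts of a gene. Besides the main rule, 12 alternatives were tried, and 1 more, the same region in both lists, was chosen after seeing the data.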

Additional observations from a re-analysis of the deposited data

How the results depend on the processing

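The GNC and CGA1 counts, 10 and 4 of 35, were within 1.5 times of these values under the rules on the peak centre, on 50% of the peak, on 1 list, on 1 kb upstream to the gene end, on the nearest gene and on a window that stops at the next gene. They stood at 2 and 0 with a score of at least 100, at 6 and 2 over the gene body and at 4 and 2 in the promoter window. The count of genes with peaks of both factors was 1, and it was 0 with a score of at least 100, over the gene body, from 1 kb upstream to the gene end, in the promoter window, with the nearest gene only and with a window that stops at the next gene, and 2 with a peak in at least 1 list. The share of all protein-coding genes with peaks of both factors is given only for the main rule, 2.57%. No change against all genes is read from this count under the other rules. The role groups with a GNC gene numbered 7, but 2 with a score of at least 100 and 3 in the promoter window, and those with a CGA1 gene 3, but 0 with a score of at least 100. The further genes with a peak of either factor numbered 12, but 9 by peak centre, 2 with a score of at least 100 and 6 over the gene body. They numbered 7 from 1 kb upstream to the gene end, 2 in the promoter window and 5 with the nearest gene only. The share of all protein-coding genes with a peak of either factor is not given here. These counts therefore show only how the number depends on the rule, and no excess or lack is read from them. Peaks per 100 kb were 0.823 for GNC and 0.0 for CGA1 with a score of at least 100, and 13.0 and 5.19 in the promoter window. No density over all protein-coding genes is given for these settings. The values are therefore not to be read against the 5.82 and 2.49 of all genes under the main rule. The score limit uses fewer peaks and the gene body and promoter settings shorter windows by construction, while the cause of the higher densities in the promoter window was not tested. With a peak in at least 1 list, GNC had 34.3% of the set against 30.9% of all genes and CGA1 14.3% against 15.0%. With a window that stops at the next gene, GNC had 25.7% against 17.9% and CGA1 8.57% against 7.73%, with no weighting to length. From 1 kb upstream to the gene end, GNC had 28.6% against 15.7%, or against 21.1% when weighted to length. Without replicate 1 or replicate 2, the GNC count ran from 10 to 12, the CGA1 count from 4 to 5, and the count with both factors from 1 to 2, with CCA1 added when CGA1 replicate 2 was left out. The shares of all genes were then 26.9% and 27.0% for GNC and 12.3% and 12.7% for CGA1. All annotated genes as background gave 20.3% for GNC and 8.69% for CGA1. Of 182 counts within single role groups, 31 moved by more than 1.5 times.

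No paired analysis of IP and INPUT samples was made, since the lists hold no read counts and no test was run. The depth behind a missing peak is unknown, and with 35 genes a share of the set that is near that of all genes cannot be told from a modest excess.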
